A study of Homo sapiens with 31 samples.

Results

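Caco-2 cells that had grown in a gut-on-chip were set against Caco-2 cells that had grown on Transwell inserts, both after 6 h with titanium dioxide (TiO2) nanomaterial. The members were chosen by their labels as the TiO2-exposed cultures of each system, which gave 7 of the 31 arrays of the study, 4 of the chip and 3 of Transwell inserts, and all 22395 genes on the arrays were compared. The chip cultures received 100 µg/mL TiO2 and the Transwell cultures 50 µg/mL. Per the labels' protocols, these concentrations were meant to deposit the same dose on the cells, as calculated with a sedimentation and diffusion model (ISDD). The 4 arrays each of chip cells and of Transwell cells in TiO2-control medium, the dispersion medium without metal, served only to ask whether the 2 systems differed in the same way without TiO2.

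Caco-2 is an established line from a human colorectal adenocarcinoma, not primary gut epithelium, and it was used at passage 29 to 45. All cultures were seeded at 75000 cells per cm2 and were exposed on day 21. Chip cells attached for 24 h and were then kept under a flow of 100 µL/h, which gives a shear near 0.002 dyne/cm2. For the exposure the upper channel was filled for 42 min and the flow was stopped, whereas each Transwell insert, with 0.4 µm pores and an area of 1.12 cm2, received 500 µL of suspension without flow. Culture device, flow history, nominal concentration and the way the suspension was applied therefore differ together and cannot be told apart. The labels number the replicates but do not say whether they came from separate cultures, so the p-values measure the spread between these samples, which may be technical.

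As background, post-confluent Caco-2 cells take on features of absorptive enterocytes, with a brush border that carries digestive hydrolases and nutrient transporters. TiO2 particles are poorly soluble and are taken up by endocytosis, and metal stress is classically read through metallothioneins, heat shock proteins and oxidative stress genes. Fluid shear acts on epithelial cells through integrins, the YAP coactivator and immediate early transcription factors, which respond within minutes to hours.

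The 2 culture systems were set apart on the first principal component, which held 50.0% of the variance, with chip arrays at 24.8 to 33.0 and Transwell arrays at −40.9 to −39.2. Chip replicate 4 stood apart from the other chip arrays on the second component (17.8% of the variance), at −46.6, while the others lay above 0, at up to 22.5. Correlations between arrays were 0.9794 to 0.9877 within the chip group, 0.9908 to 0.9917 within the Transwell group and 0.9684 to 0.9764 between the groups. Once each system's mean was taken off, chip replicate 4 correlated at −0.28 on average with the other chip TiO2 arrays and at −0.07 with the chip control arrays, and chip control replicate 4 correlated at −0.10 with the chip TiO2 arrays and at −0.22 with the other chip controls. Each of these 2 arrays was thus less unlike the group it was not labelled for. Whether the 2 labels were exchanged was not tested. The counts after TiO2 are given with and without chip replicate 4, and the comparison of the media with and without both arrays. The typical SD over genes was 0.305 in chip cells and 0.228 in Transwell cells, and 0.269 in chip cells without replicate 4.

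**Figure D1:**
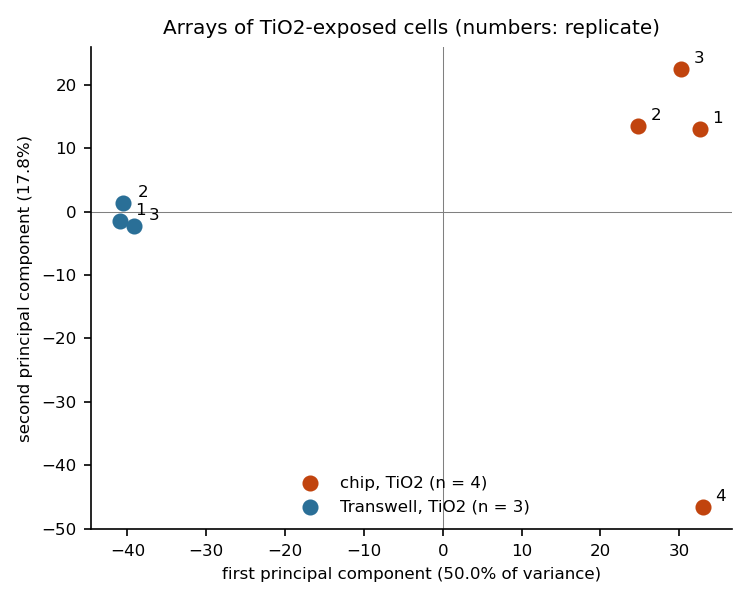
Position of the 7 arrays of TiO2-exposed cells on the first principal component (horizontal, 50.0% of variance) and the second (vertical, 17.8%), in arbitrary units; each point is an array and the number beside it is its replicate. The 4 chip arrays lie at 24.8 to 33.0 on the horizontal axis and the 3 Transwell arrays at −40.9 to −39.2, and chip replicate 4 lies at −46.6 on the vertical axis.

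Values are log2 expression after RMA normalisation, so a difference of 1 is a 2-fold change, and every difference is chip minus Transwell. Of 22395 genes, 3080 (13.8%) differed at a Benjamini-Hochberg adjusted p below 0.05 in limma, 1305 (5.83%) higher and 1775 (7.93%) lower in chip cells. At least 2-fold differences that also passed numbered 423 (1.89%) higher and 521 (2.33%) lower. The arrays of the groups did not overlap for 3075 of the 3080 genes, and for 6171 of all genes (27.6%), with the chip arrays all above for 12.7% and all below for 14.9%. Without chip replicate 4 the counts were 1583 higher and 2106 lower, and these included 1210 and 1643 of the original calls. Without Transwell replicate 1, 2 or 3 they were 737, 740 and 755 higher and 887, 965 and 867 lower, so the number of genes called rests on having all 3 Transwell arrays. In total 617 higher and 733 lower genes passed in all 7 fits that left out 1 array. Single genes named below as higher or lower passed in all of these fits unless the text says otherwise. Counts over lists are those with all 7 arrays and include members that did not, so that 8 of 11 higher heat shock genes, 8 of 11 of the integrated stress response, 11 of 14 of the plasminogen and metalloprotease list and 6 of 8 integrin and matrix genes passed in all of them.

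**Figure D2:**
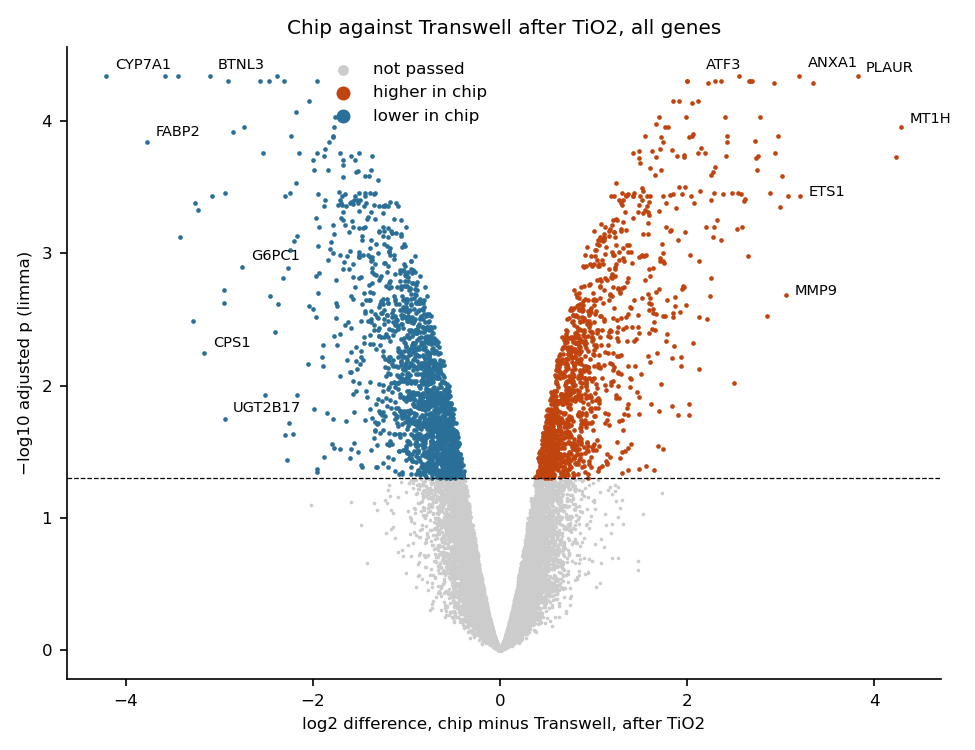
Difference of each of the 22395 genes (horizontal, log2 chip minus Transwell after TiO2) against −log10 of its adjusted p in limma (vertical); the dashed line is the threshold of 0.05, and coloured points are the 1305 higher and 1775 lower genes. MT1H (4.29) and PLAUR (3.82) lie farthest right among the labelled genes, and CYP7A1 (−4.21) and FABP2 (−3.77) farthest left.

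The leading genes of each direction were taken only from passing genes whose arrays did not overlap between the groups. Among the 15 leading higher genes were 2 metallothioneins, 2 metalloproteases and the urokinase receptor. MT1H, a metallothionein that binds zinc and other metals, read 6.44, 7.47, 7.21 and 7.52 on the chip arrays and 2.31, 3.09 and 3.20 on the Transwell arrays. MT1G, another metallothionein, read 6.92, 7.31, 7.17 and 8.41 on the chip arrays and 3.19, 2.81 and 3.65 on the Transwell arrays. For both, the Transwell mean lay below the array medians over all probe sets, where a signal was not shown above background. The differences of 4.29 ± 0.30 (SE) and 4.24 ± 0.34 (adjusted p = 0.000112 and 0.000187) are therefore at best lower bounds. PLAUR encodes the urokinase receptor, which gathers plasmin formation at the cell surface. It read 9.54, 8.79, 9.08 and 9.25 in chip cells and 5.33, 5.30 and 5.40 in Transwell cells, a 14.1-fold difference (3.82 ± 0.17, adjusted p = 4.55e-05). ANXA1, the annexin that acts as an anti-inflammatory mediator, read 7.62, 7.42, 7.35 and 7.93 in chip cells and 4.27, 4.50 and 4.37 in Transwell cells, a 9.18-fold difference (3.20 ± 0.16, adjusted p = 4.55e-05). The arrays of both genes formed tight groups with a wide gap between the systems.

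ETS1, a transcription factor of invading and activated cells, averaged 5.98 ± 0.44 in chip cells and 2.77 ± 0.57 in Transwell cells (SD, n = 4 and 3), the Transwell value being below the array medians. MMP9, the gelatinase B protease, read 7.37, 7.04, 5.92 and 5.49 in chip cells and 3.64, 3.30 and 3.25 in Transwell cells. Its chip arrays spread over almost 2 log2 units, and the difference was 8.34-fold (adjusted p = 0.00206 in limma). PTGS2, the inducible cyclooxygenase of prostaglandin synthesis, read 8.14, 7.31, 7.16 and 8.18 in chip cells and 4.90, 4.89 and 4.63 in Transwell cells (7.41-fold, adjusted p = 0.000347). TNFRSF9, a co-stimulatory receptor known from activated lymphocytes, differed 8.42-fold, and CEACAM7, an adhesion molecule of differentiated colonocytes, differed 8.08-fold. PDK4, a kinase that shuts pyruvate out of mitochondrial oxidation, read 6.22, 6.54, 6.01 and 5.98 in chip cells and 3.19, 3.06 and 3.52 in Transwell cells. The remaining leading genes were BNIP5 (3.35), MMP7 (2.99), CYP2B7P (2.97), KRTAP3-1 (2.94) and UBD (2.85), all with adjusted p of 0.00295 or lower. For ETS1, MMP7, PDK4 and UBD the Transwell mean was below the array medians, so the size of the difference is at best a lower bound.

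Promoters from RefSeq (GRCh38.p14, 250 bases before to 50 bases after the start of the gene) are shown for 3 leading genes, MT1H, PLAUR and FABP2, since metallothionein and protease genes are textbook targets of the metal response factor and of the AP-1 factors. Of the 30 leading genes 22 had an entry, and the AP-1 letters stood in 3 of the 11 higher ones (PLAUR, TNFRSF9 and MMP7) and in 2 of the 11 lower ones (FABP2 and ASAH2). Capitals mark the metal response core TGCNCNC on either strand in MT1H, and the AP-1 letters TGANTCA in PLAUR and in FABP2, a leading lower gene. MT1H lies on the plus strand at chr16:56669564-56669863, PLAUR on the minus strand at chr19:43670120-43670419 and FABP2 on the minus strand at chr4:119322089-119322388.
MT1H: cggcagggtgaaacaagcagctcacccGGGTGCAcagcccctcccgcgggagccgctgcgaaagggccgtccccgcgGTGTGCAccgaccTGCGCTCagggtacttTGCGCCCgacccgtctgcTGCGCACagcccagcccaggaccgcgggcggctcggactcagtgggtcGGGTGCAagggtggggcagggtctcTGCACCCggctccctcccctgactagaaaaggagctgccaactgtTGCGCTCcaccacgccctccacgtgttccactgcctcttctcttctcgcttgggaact
PLAUR: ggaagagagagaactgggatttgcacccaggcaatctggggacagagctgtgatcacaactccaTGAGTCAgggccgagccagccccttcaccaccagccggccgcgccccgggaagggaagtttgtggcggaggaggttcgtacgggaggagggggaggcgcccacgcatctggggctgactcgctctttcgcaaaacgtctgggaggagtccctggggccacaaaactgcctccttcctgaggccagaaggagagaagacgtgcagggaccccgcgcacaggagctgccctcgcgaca
FABP2: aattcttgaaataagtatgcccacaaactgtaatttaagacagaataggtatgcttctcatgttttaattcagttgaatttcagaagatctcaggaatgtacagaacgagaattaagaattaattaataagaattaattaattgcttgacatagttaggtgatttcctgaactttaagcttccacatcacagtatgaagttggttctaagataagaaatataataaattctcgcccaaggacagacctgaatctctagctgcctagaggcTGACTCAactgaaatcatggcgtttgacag

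The metal response core stood 8 times in the MT1H promoter and in 5 of 5 metallothionein promoters, but it also stood in 60.1% of the 15489 promoters of tested genes, since it is short. The AP-1 letters stood in 33 of 314 promoters (10.5%) of genes at least 2-fold higher in chip cells and in 21 of 382 (5.5%) of genes at least 2-fold lower, against 6.13% of all, and in 1 of 20 immediate early promoters (5.0%). The ATF/CRE letters TGACGNNA stood in 10.2% of the promoters of the higher genes, in 3.93% of those of the lower genes and in 9.34% of all, and in 8 of 20 immediate early promoters. The letters GAANNTTC, facing heat shock element sites, stood in 8.92%, 4.19% and 5.62%. The HNF1 motif stood in none of the higher genes' promoters, in 4 of 382 of the lower genes' (1.05%) and in 0.252% of all. The aryl hydrocarbon receptor core GCGTG stood in 43.6%, 40.1% and 43.6%, and a metal core that reads TGCACGC also holds it. A match describes the letters in this window and is not evidence of binding.

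Among the 15 leading lower genes were enzymes of bile acid, ether lipid, ceramide, steroid and ammonia metabolism, beside genes outside metabolism. CYP7A1, which catalyses the slowest step in making bile acids, read 3.34, 2.55, 2.47 and 3.05 in chip cells and 7.05, 7.20 and 6.93 in Transwell cells. FABP2, the intestinal fatty acid binding protein, read 1.81, 3.05, 1.84 and 1.94 in chip cells and 5.97, 5.94 and 5.87 in Transwell cells. Both genes were above the array medians in Transwell cells, and their chip means lay below these medians, although CYP7A1 on chip replicate 1 did not. Their differences of −4.21 ± 0.22 and −3.77 ± 0.29 (SE; adjusted p = 4.55e-05 and 0.000144) are at best lower bounds on the loss. CPS1, which starts the urea cycle, read 5.05, 7.81, 7.16 and 6.35 in chip cells and 9.81, 9.72 and 9.73 in Transwell cells (8.93-fold lower, adjusted p = 0.00566). The chip arrays of CPS1 spread widely (SD 1.19) and the Transwell arrays hardly at all (SD 0.05). AGMO, which cleaves ether lipids, spread in the same way, with 3.45, 6.06, 5.23 and 4.71 in chip cells and 8.09, 8.22 and 8.12 in Transwell cells.

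ASAH2, the neutral ceramidase of the brush border, read 2.86, 4.08, 3.70 and 3.45 in chip cells and 6.15, 6.80 and 7.31 in Transwell cells (9.40-fold lower). Its near copy ASAH2C fell by 3.58 on the log2 scale, and probes may not separate these 2 genes. HSD3B1, a steroid dehydrogenase, fell by 3.26, and SLC23A3, an orphan member of the ascorbate transporter family, fell by 3.42. BTNL3, a butyrophilin-like protein of gut epithelium that engages γδ T cells, read 3.08, 2.70, 3.28 and 2.80 in chip cells and 6.19, 5.93 and 6.09 in Transwell cells, with the chip mean below the array medians. F13B, a subunit of coagulation factor XIII, fell by 3.08, with the chip mean below the array medians. CEACAM20, a brush border adhesion protein, fell by 2.94. C17orf78 (−3.44), TMEM253 (−2.95) and ADAM23 (−2.95) completed the group. UGT2B17, a steroid glucuronosyltransferase, read 1.24, 4.48, 3.00 and 3.67 in chip cells and 6.05, 6.58 and 5.49 in Transwell cells. Its chip mean lay below the array medians, so its difference of −2.94 ± 0.65 is at best a lower bound on the loss. It passed (adjusted p = 0.0178) but not without Transwell replicate 1 or 2, with an adjusted p of up to 0.0769 and values of −3.40 to −2.32 over the 7 omissions. The other 29 of the 30 leading genes passed in each of these fits.

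**Figure D3:**
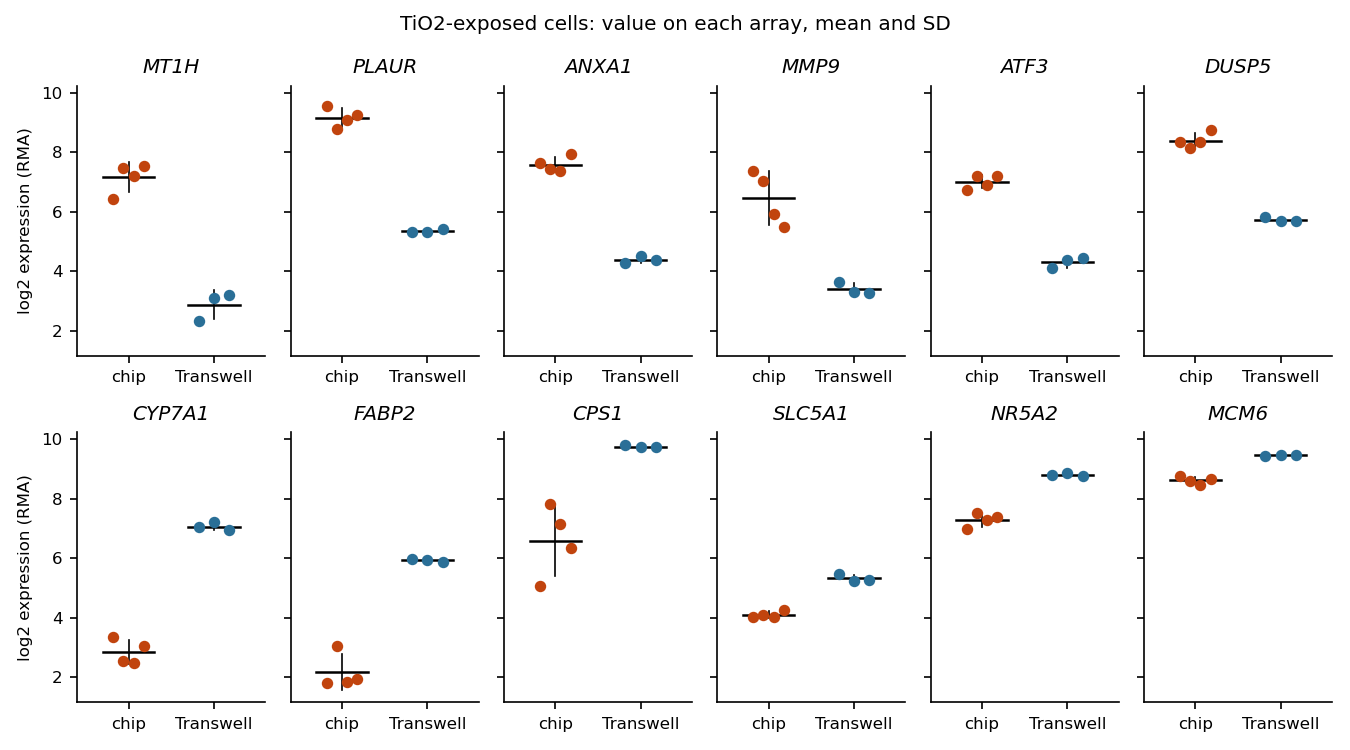
Log2 expression (vertical axis) of 12 genes on each array of TiO2-exposed cells, chip (n = 4) left of Transwell (n = 3); points are arrays, horizontal lines means and vertical lines SD. The upper row holds genes higher in chip cells, such as PLAUR with 8.79 to 9.54 in chip cells and 5.30 to 5.40 in Transwell cells, and the lower row holds genes lower in chip cells, such as CYP7A1 with 2.47 to 3.34 in chip cells and 6.93 to 7.20 in Transwell cells.

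**Figure D4:**
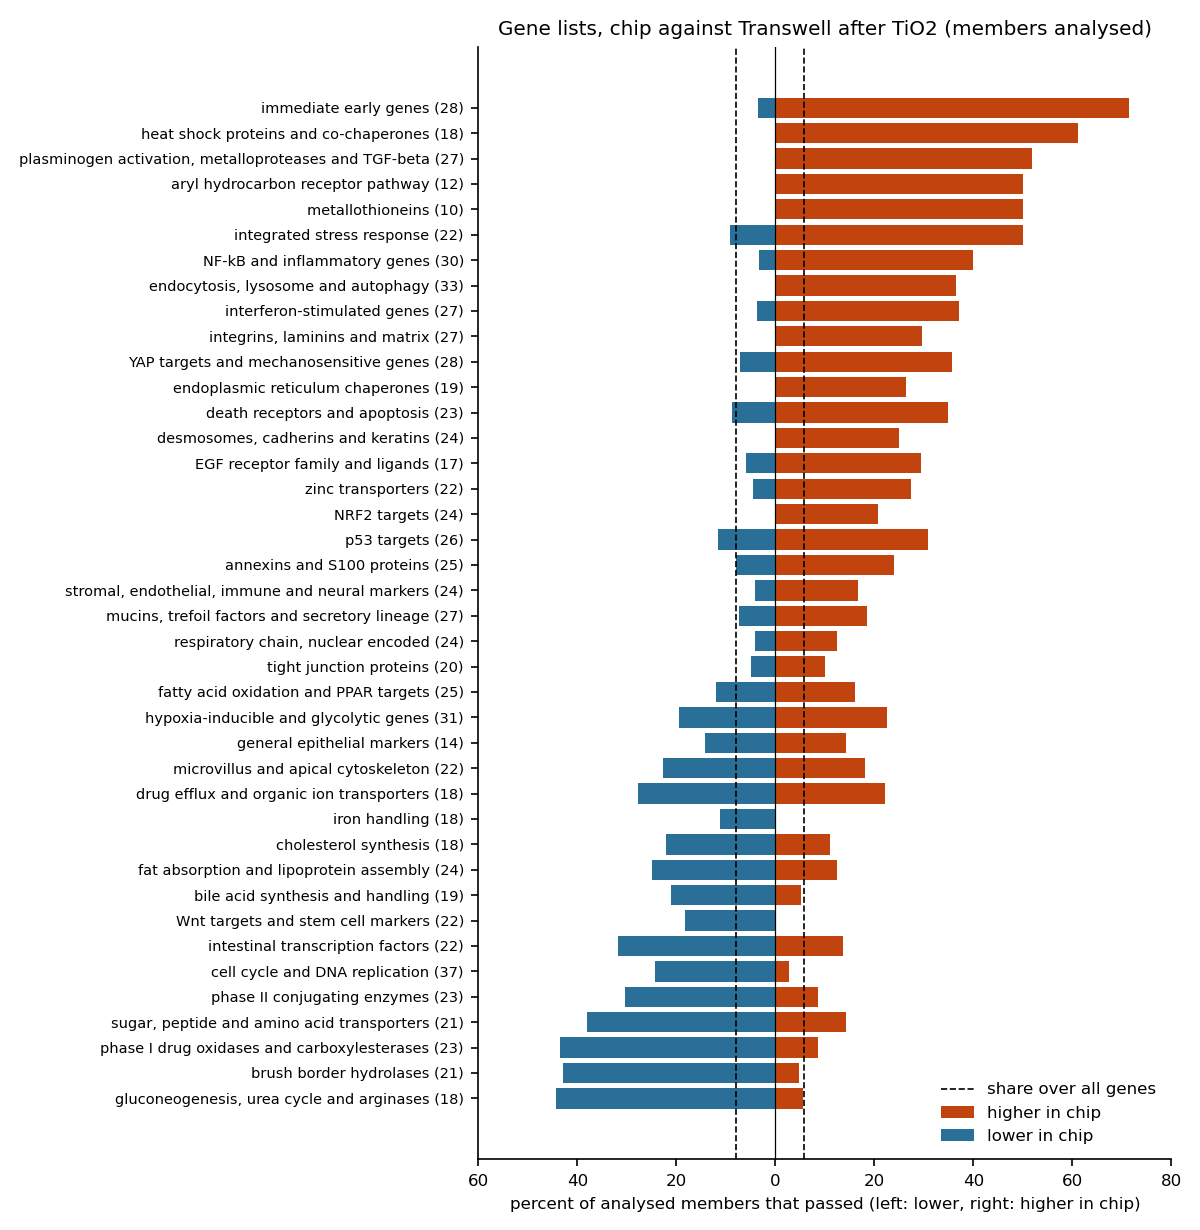
Share of the analysed members of each of 40 gene lists (number in brackets) that passed the gene-wise test, higher in chip cells to the right and lower to the left, in percent; the dashed lines are the shares over all genes, 5.83% higher and 7.93% lower. Immediate early genes reach 71.4% higher, and the gluconeogenesis and urea cycle list reaches 44.4% lower.

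Immediate early genes, which encode transcription factors and phosphatases that cells switch on without new protein synthesis, were the list with the highest share of raised members. Of 28 analysed, 20 were higher (71.4%) and 1 lower, with a median difference of 1.39 against 0.01 over all genes. The 20 higher members passed in every omission of 1 array. ZFP36, which speeds the decay of inflammatory mRNAs, read 10.36, 10.36, 10.42 and 10.49 in chip cells and 8.42, 8.38 and 8.43 in Transwell cells. The ATF3 transcription factor read 6.73, 7.19, 6.90 and 7.18 in chip cells and 4.10, 4.37 and 4.45 in Transwell cells. DUSP5, a phosphatase that switches off ERK, read 8.34, 8.13, 8.33 and 8.75 in chip cells and 5.82, 5.68 and 5.70 in Transwell cells. In all 3 the groups were separated by many times their spread, which choosing members by the smallest p favours. The fold differences were 3.98, 6.46 and 6.30. DUSP1 rose 4.67-fold, and the AP-1 subunits rose as well, FOSL1 by 1.63, FOS by 1.42, JUN by 1.89 and JUNB by 1.74 on the log2 scale. SGK1 was the lower member (−0.44, adjusted p = 0.0384) and passed only without chip replicate 4 among the omissions, with values of −0.47 to −0.39 and an adjusted p of up to 0.153.

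The EGF receptor pathway, which feeds ERK and AP-1, held 5 higher and 1 lower of 17 members (median 0.22). The ligand genes EREG and HBEGF rose 3.14-fold and 3.86-fold, and so did the feedback inhibitor genes ERRFI1 (3.91-fold) and SPRED1 (2.24-fold). EREG read 9.28, 9.61, 9.68 and 9.58 in chip cells and 7.94, 8.01 and 7.70 in Transwell cells. The call of the lower member, the receptor ERBB3 (−0.46, adjusted p = 0.0464), was lost in 6 of the 7 omissions, all but that of chip replicate 4, with an adjusted p of up to 0.156.

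Metallothionein genes numbered 10, of which 5 were higher and none lower (median 1.48). Beside MT1H and MT1G these were MT1X, which read 10.74, 10.69, 10.70 and 11.20 in chip cells and 8.61, 8.54 and 8.89 in Transwell cells, MT2A (3.69-fold) and MT1E (2.06 ± 0.34, adjusted p = 0.00477, Transwell mean below the array medians). MT1F, at 9.40 ± 0.33 in chip cells and 9.09 ± 0.26 in Transwell cells, did not pass (adjusted p = 0.372). Paralogs are so alike that a probe can read several of them, so the values of single members are uncertain. Of 22 zinc transporters and the zinc sensor gene MTF1, 6 were higher and 1 lower (median 0.10). SLC30A2, which loads zinc into vesicles, rose 2.17-fold, the exporter SLC30A1 1.92-fold and the importer genes SLC39A4 and SLC39A11 2.26-fold and 1.76-fold. SLC39A7 (0.49) and MTF1 (0.44) lost their calls without chip replicate 2 or 3 or any Transwell array, MTF1 also without chip replicate 1, with an adjusted p of up to 0.0973 and 0.174. The lower member, SLC30A10, a manganese exporter whose chip mean lay below the array medians, lost its call without Transwell replicate 1 or 3 (−1.31 to −0.95, adjusted p up to 0.0518).

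Heat shock and co-chaperone genes, which help proteins refold, were higher for 11 of 18 members and lower for none (median 0.78). HSPB1 read 10.77, 10.60, 10.91 and 10.06 in chip cells and 8.27, 8.38 and 8.35 in Transwell cells, 4.76-fold higher. DNAJB1, a partner of HSP70, read 9.65, 9.89, 9.66 and 10.18 in chip cells and 8.54, 8.50 and 8.55 in Transwell cells. CRYAB (5.84-fold) and HSPB8 (2.55-fold) lay below the array medians in Transwell cells. The integrated stress response, in which ATF4 drives stress and amino acid genes, had 11 higher and 2 lower of 22 members (median 0.52). PPP1R15A, which restarts translation after stress, read 9.38, 9.67, 9.46 and 9.51 in chip cells and 7.53, 7.71 and 7.52 in Transwell cells. GDF15, a secreted stress hormone, rose 6.75-fold, DDIT3, the CHOP factor, 3.58-fold and ATF4 itself by 0.76. The serine synthesis gene PHGDH and the transsulfuration gene CBS were the lower members, at −0.57 and −0.71, and lost their calls without any 1 Transwell array and without Transwell replicate 3, with an adjusted p of up to 0.0949 and 0.0754. Among genes of the endoplasmic reticulum 5 of 19 were higher and none lower (median 0.37). DNAJB9 (2.49-fold), the stress sensor ERN1 (2.45-fold) and DNAJC3 (1.89-fold) passed in each omission. XBP1 (0.50) lost its call without any Transwell array (adjusted p up to 0.0875), and the count was 3 without Transwell replicate 1 or 2.

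Targets of NRF2, the oxidative stress factor, were higher for 5 of 24 members and lower for none (median 0.31). TXNRD1, which reduces thioredoxin, read 7.65, 7.91, 7.69 and 7.91 in chip cells and 6.69, 6.76 and 6.69 in Transwell cells (2.10-fold), and SRXN1, which reactivates peroxiredoxins, rose 2.13-fold. The cystine importer gene SLC7A11 (1.37) lost its call without Transwell replicate 2 or 3, and GCLM of glutathione synthesis (0.84) without chip replicate 1 or any Transwell array, with adjusted p of up to 0.0705 and 0.114. The count was 3, 2 and 2 without Transwell replicate 1, 2 or 3. HMOX1, the haem oxygenase often used as a marker of oxidative stress, did not pass (8.01 in chip cells, 7.43 in Transwell cells, adjusted p = 0.149), nor did NQO1 (0.35, adjusted p = 0.0824).

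NF-kB and inflammatory genes were higher for 12 of 30 members and lower for 1 (median 0.60), and the lower count was 3 without chip replicate 4, with NFKBIZ and CCL2 at −0.48 each. ICAM1, an adhesion receptor for leukocytes, read 9.96, 9.40, 9.57 and 9.60 in chip cells and 8.05, 8.04 and 8.09 in Transwell cells. The feedback inhibitor genes NFKBIA and TNFAIP3 rose 3.25-fold and 2.89-fold, the chemokine gene CCL20 2.34-fold and TNF by 2.13 on the log2 scale. IL1B was the lower member, at 4.29 ± 0.08 in chip cells and 5.20 ± 0.28 in Transwell cells (−0.91, adjusted p = 0.00479). Interferon-stimulated genes, which encode antiviral effectors, were higher for 10 of 27 members and lower for 1 (median 0.39), 7 of the 10 in each omission. IFI27 (3.33-fold), the IRF1 transcription factor (2.81-fold), IFIT2 (3.91-fold) and OAS1 (1.77-fold) had the smallest p. Their chip arrays were all above their Transwell arrays, and groups without overlap were seen for 3075 of the 3080 genes that passed. IRF1 read 6.59, 5.90, 6.29 and 6.55 in chip cells and 4.76, 4.93 and 4.84 in Transwell cells. HERC6, the lower member (−0.55), passed only without chip replicate 4 among the omissions (adjusted p up to 0.118).

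Genes of death receptors and apoptosis were higher for 8 of 23 members and lower for 2 (median 0.29), and p53 targets for 8 and 3 of 26 (median 0.23). The lower apoptosis genes, FADD (−0.51) and CASP8 (−0.61), passed in 1 omission each, without chip replicate 1 and without chip replicate 4 (adjusted p up to 0.148 and 0.158). Without chip replicate 2 neither did, and the 1 lower gene there was the TRAIL ligand gene TNFSF10 (−1.32 and an adjusted p of 0.0866 with all arrays). TNFRSF12A, the receptor of the cytokine TWEAK, read 10.64, 10.48, 10.56 and 10.36 in chip cells and 8.62, 8.67 and 8.70 in Transwell cells (3.60-fold). The TRAIL receptor genes TNFRSF10B and TNFRSF10D rose 2.88-fold and 2.10-fold, and the anti-apoptotic MCL1 2.33-fold. The growth arrest genes GADD45B and GADD45A rose 5.16-fold and 3.53-fold and the kinase gene PLK3 6.39-fold. CDKN1A, the cell cycle inhibitor p21 and the best known p53 target, was higher by 0.62 (adjusted p = 0.0411) but passed only without chip replicate 4 among the omissions (adjusted p up to 0.134). MDM2, BAX and SESN1 were lower, at −0.49, −0.46 and −0.61, and 0 of these 3 passed without any of the Transwell arrays (adjusted p up to 0.129, 0.124 and 0.0924). Without chip replicate 1 or 2 the lower p53 count was 1, and without chip replicate 3 it was 0.

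Protease and matrix genes were among the raised groups. Of 27 genes of plasminogen activation, metalloproteases and TGF-beta, 14 were higher and none lower (median 0.77). Beside the receptor PLAUR, its ligand gene PLAU, the urokinase, read 5.90, 4.96, 5.14 and 5.74 in chip cells and 3.17, 3.47 and 3.59 in Transwell cells (4.07-fold). The sheddase gene ADAM9 rose 2.08-fold, the collagenase gene MMP1 by 2.13 and the cytokine genes TGFB2 and TGFB1 by 2.21 and 1.02 on the log2 scale. Integrin, laminin and matrix genes were higher for 8 of 27 members and lower for none (median 0.38). ITGA2, a collagen receptor subunit, read 9.84, 9.40, 9.43 and 10.50 in chip cells and 7.95, 7.62 and 7.95 in Transwell cells (3.87-fold). SPARC (3.39-fold), LAMA4 (2.25-fold, Transwell mean below the array medians) and ITGAV (1.75-fold) also rose. Bulk arrays cannot tell fewer cells of a kind from less RNA per cell, which holds for each value given here.

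YAP targets and mechanosensitive genes were higher for 10 of 28 members and lower for 2 (median 0.20), and the higher count was 6 without Transwell replicate 3. CCN1, a matricellular protein and classical YAP target, read 8.17, 8.15, 7.91 and 8.12 in chip cells and 5.80, 6.17 and 5.97 in Transwell cells (4.32-fold). ANKRD1 rose 4.33-fold, the vasoactive peptide genes EDN1 and NPPB 3.46-fold and 4.85-fold. CCN2, a close relative of CCN1, was higher by 1.04 but lost its call without Transwell replicate 3 (adjusted p = 0.051). AJUBA (−0.62) and TEAD4 (−0.49) were lower, TEAD4 only without chip replicate 4 among the omissions (adjusted p up to 0.118). Annexin and S100 genes, which encode calcium-binding proteins, were higher for 6 of 25 members and lower for 2 (median 0.21). The lower count was 1 without any 1 Transwell array. S100P rose 2.86-fold and ANXA6 2.67-fold, whereas S100G, the calbindin that carries calcium across the enterocyte, read 2.56, 3.45, 3.10 and 3.02 in chip cells and 5.77, 5.78 and 5.75 in Transwell cells. The chip mean of S100G lay below the array medians.

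Of 20 tight junction genes 2 were higher and 1 lower (median 0.18), a share near the 13.8% of all genes that passed in either direction, and none of the 3 passed in each omission. CLDN4 (0.90) lost its call without Transwell replicate 3 (adjusted p = 0.0577), CLDN2 (0.63) in 5 omissions (up to 0.144), and CLDN1 (−0.56) without any Transwell array (up to 0.086). The scaffold gene TJP1 did not pass, with 9.90, 9.79, 9.88 and 10.21 in chip cells and 9.60, 9.46 and 9.50 in Transwell cells (adjusted p = 0.0708). Of 24 desmosome, cadherin and keratin genes 6 were higher and none lower (median 0.24). KRT20, a keratin of mature gut epithelium, read 8.63, 9.16, 9.01 and 8.84 in chip cells and 7.20, 7.52 and 7.31 in Transwell cells, and KRT23 (3.81-fold), KRT80 (2.55-fold, Transwell mean below the array medians) and the desmoglein gene DSG2 (1.96-fold) rose too. E-cadherin, CDH1, stood at 12.12 in chip cells and 12.16 in Transwell cells (adjusted p = 0.898).

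Brush border enzymes that passed were, with 1 exception, lower in chip cells. Of 21 brush border hydrolases 1 was higher and 9 lower (median −0.56), and the lower count was 4 without any 1 of the Transwell arrays. MEP1B, a meprin subunit, read 3.31, 3.56, 3.03 and 2.96 in chip cells and 4.80, 4.65 and 4.62 in Transwell cells, with the chip mean below the array medians. TREH, the trehalase, fell by 1.29. Sucrase-isomaltase, SI, averaged 9.05 ± 1.12 in chip cells and 11.30 ± 0.03 in Transwell cells (−2.25, adjusted p = 0.0191) and lost its call without any Transwell array (−2.62 to −1.74, adjusted p up to 0.0674). Lactase, LCT (−0.96), and MGAM (−0.99) passed in 2 of the 7 omissions (adjusted p up to 0.135 and 0.12). ALPG, an alkaline phosphatase of germ cells and placenta whose sequence is close to that of its paralogs, was the higher member at 6.69, 5.96, 5.82 and 5.66 in chip cells and 3.97, 3.51 and 3.69 in Transwell cells. The intestinal paralog ALPI did not pass (−0.35, adjusted p = 0.533), nor did the peptidase genes ANPEP and DPP4 (adjusted p = 0.358 and 0.117). Of 22 genes of the microvillus and apical cytoskeleton 4 were higher and 5 lower (median −0.08), and the higher count was 2 without Transwell replicate 1 or 3 and the lower count 3 without Transwell replicate 1. The actin bundler gene VIL1 (−0.74) and the tip-link gene USH1C (−0.68) fell, and TMIGD1 (1.45) and BAIAP2L1 (0.63) rose.

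Sugar, peptide and amino acid transporters were higher for 3 and lower for 8 of 21 members (median −0.13). SLC5A1, the sodium-glucose transporter SGLT1, read 4.02, 4.10, 4.02 and 4.25 in chip cells and 5.45, 5.24 and 5.28 in Transwell cells (2.34-fold lower). The fructose carrier gene SLC2A5 fell 2.84-fold, the cystine and dibasic amino acid transporter gene SLC7A9 3.81-fold and the proton-coupled amino acid carrier gene SLC36A1 2.48-fold. The peptide transporter gene SLC15A1 did not pass (0.58, adjusted p = 0.0527). Genes of fat absorption and lipoprotein assembly were higher for 3 and lower for 6 of 24 members (median −0.32), and the higher count was 1 without chip replicate 2 or any 1 Transwell array. MTTP, which loads fat onto apolipoprotein B, read 7.72, 8.79, 8.33 and 7.40 in chip cells and 9.66, 9.64 and 9.67 in Transwell cells (3.03-fold lower), SOAT2, which esterifies cholesterol, fell 2.06-fold and FITM2 of lipid droplet formation 1.86-fold. APOB (−0.43, adjusted p = 0.263) and FABP1 (0.09, adjusted p = 0.826) did not pass. APOA4 was higher, at 10.05 ± 0.20 in chip cells and 9.30 ± 0.13 in Transwell cells.

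Bile acid genes were higher for 1 and lower for 4 of 19 members (median −0.16), the lower count being 2 without any 1 Transwell array. BAAT, which conjugates bile acids, read 8.25, 8.30, 8.04 and 7.39 in chip cells and 5.57, 5.45 and 5.81 in Transwell cells (5.22-fold higher), opposite to CYP7A1. FGFR4, the FGF19 receptor that restrains CYP7A1 in hepatocytes, fell 1.82-fold. CYP27A1 (−0.73) lost its call without any Transwell array (adjusted p up to 0.0836). Glucose and nitrogen metabolism, studied mostly in liver and kidney but active in small intestine, held 1 higher and 8 lower of 18 members (median −0.50), with 5 lower without Transwell replicate 1 or 3 and 2 higher without chip replicate 4. G6PC1, which releases free glucose, read 3.69, 5.03, 4.83 and 4.04 in chip cells and 7.55, 6.67 and 7.23 in Transwell cells (6.75-fold lower), and its partner transporter gene SLC37A4 fell 2.28-fold. NAGS, which makes the activator of CPS1, fell 3.04-fold. PCK1, an earlier step of gluconeogenesis, went the other way, with 6.28, 7.82, 7.43 and 7.33 in chip cells and 4.68, 4.65 and 4.37 in Transwell cells (6.28-fold higher).

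Most phase I and phase II genes that passed were lower in chip cells. Of 23 phase I oxidases and carboxylesterases 2 were higher and 10 lower (median −0.50), and the lower count was 6 without Transwell replicate 1. The higher count was 1 without chip replicate 1 or 2 or Transwell replicate 2. The alcohol dehydrogenase gene ADH1C fell 3.06-fold, ADH4 4.14-fold and the orphan P450 gene CYP2U1 2.23-fold. CYP3A5, an oxidase of the CYP3A family, was higher, with 8.46, 7.96, 8.70 and 8.04 in chip cells and 5.89, 5.71 and 6.03 in Transwell cells (5.33-fold). CYP3A4 was below the array medians in both systems (adjusted p = 0.738). Of 23 phase II conjugating enzymes 2 were higher and 7 lower (median −0.09), and the higher count was 1 in each omission but that of chip replicate 4. The sulfotransferase gene SULT2A1 fell 3.53-fold, the glucuronosyltransferase gene UGT2A3 2.30-fold and the acetyltransferase gene NAT2 3.16-fold, its chip mean being below the array medians, while SULT1C2 rose 2.69-fold. Of 18 efflux and organic ion transporters 4 were higher and 5 lower (median −0.12). The higher count was 1 without Transwell replicate 1 or 2 and 2 without chip replicate 1 or Transwell replicate 3. SLCO4C1 fell 4.49-fold, the carnitine and ergothioneine carrier gene SLC22A4 3.92-fold and the nucleoside carrier gene SLC28A1 2.10-fold, and ABCC1, the MRP1 pump, rose 1.80-fold.

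The aryl hydrocarbon receptor pathway, which senses planar chemicals and tryptophan products, was higher for 6 of 12 members and lower for none (median 0.46). CYP1A1, its classical target, read 10.24, 10.85, 10.40 and 10.78 in chip cells and 8.73, 8.71 and 8.95 in Transwell cells (3.42-fold). The receptor gene AHR rose 1.93-fold, its repressor gene TIPARP 2.79-fold and LMCD1 2.56-fold. Each chip array of these 4 genes was above each Transwell array, which is usual here, since 3075 of the 3080 passing genes had no overlap.

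Intestinal transcription factors were higher for 3 and lower for 7 of 22 members (median −0.07). NR5A2, a nuclear receptor that drives CYP7A1 in liver, read 6.97, 7.52, 7.29 and 7.38 in chip cells and 8.79, 8.86 and 8.76 in Transwell cells (2.86-fold lower). CDX2, the master factor of intestinal identity, read 7.76, 7.62, 7.58 and 7.13 in chip cells and 8.37, 8.63 and 8.53 in Transwell cells (1.98-fold lower). MAF, a factor of mature villus enterocytes in mice, fell 2.41-fold. ELF3 and KLF4, factors of epithelial differentiation, rose 2.14-fold and 2.10-fold. Wnt targets and stem cell markers were lower for 4 of 22 members and higher for none (median −0.08), and the lower count was 2 without chip replicate 2 or any 1 Transwell array. LRIG1 (−0.82) and ASCL2 (−0.91) passed in each omission, and ZNRF3 (−0.73) and SP5 (−0.70) did not (adjusted p up to 0.106 and 0.129). LGR5 did not pass (−0.46, adjusted p = 0.134). Of 27 mucin, trefoil and secretory genes 5 were higher and 2 lower (median 0.10), and the lower count was 1 without Transwell replicate 2 or 3. The trefoil peptide gene TFF1 (2.80-fold), the lysozyme gene LYZ (2.37-fold) and AGR2 (1.55-fold) rose, the lectin gene ZG16 fell 3.42-fold, and MUC2 did not pass (−0.05, adjusted p = 0.857).

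DNA replication genes were among the lower ones. Of 37 cell cycle genes 1 was higher and 9 lower (median −0.09), the lower count being 5 without Transwell replicate 2 and 4 without Transwell replicate 3. The higher member was CDKN1A, and the higher count was 0 without chip replicate 1, 2 or 3 or Transwell replicate 1 or 2, and 2 without chip replicate 4. The replicative helicase gene MCM6 read 8.75, 8.60, 8.46 and 8.67 in chip cells and 9.43, 9.48 and 9.48 in Transwell cells (1.79-fold lower), MCM3 and MCM5 fell 1.79-fold and 1.76-fold, and the thymidylate synthase gene TYMS fell 1.96-fold. The proliferation marker MKI67 did not pass (−0.19, adjusted p = 0.48).

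Lists of energy, lipid and metal supply were mixed. Hypoxia-inducible and glycolytic genes were higher for 7 and lower for 6 of 31 members (median 0.13), with 4 higher without any 1 Transwell array and 2 lower without Transwell replicate 2. ADM, a vasodilator peptide gene, rose 3.95-fold and the enolase gene ENO2 2.39-fold, and PDK1 and PFKFB4, regulators of glucose use, fell 2.29-fold and 2.33-fold. Cholesterol synthesis held 2 higher and 4 lower of 18 members (median −0.26), among them LSS, which closes the sterol rings (2.72-fold lower), TM7SF2 (1.82-fold lower), MVK (1.91-fold lower) and INSIG1, a brake on the pathway (1.74-fold higher). The higher count was 1 in each omission but that of chip replicate 3. Fatty acid oxidation and PPAR targets held 4 higher and 3 lower of 25 members (median 0.02), with PDK4 and CPT1A, which admits fatty acids to mitochondria (3.27-fold), higher and PPARG (1.72-fold) and ACADS (1.59-fold) lower. The higher count was 2 without Transwell replicate 2, and the lower count 5 without chip replicate 2. Of 18 iron genes 0 were higher and 2 lower (median 0.05), a share near the 13.8% of all genes that passed in either direction. SLC11A2, the apical iron importer DMT1, read 8.88, 8.89, 9.14 and 9.06 in chip cells and 10.78, 10.76 and 10.73 in Transwell cells (3.40-fold lower), and ACO1 (−0.45) lost its call in 6 omissions (adjusted p up to 0.149). FTL and TFR2 did not pass (adjusted p = 0.0564 and 0.113). Of 24 respiratory chain genes 3 were higher and 1 lower (median 0.04), also a share near the 13.8% of all genes. NDUFA1 (0.61) alone passed in each omission. UQCRB (0.75) and NDUFB3 (0.60) lost their calls in 4 and 6 omissions, that of chip replicate 4 among them (adjusted p up to 0.126 and 0.135), and the lower ATP5F1A (−0.59) without Transwell replicate 2 or 3 (up to 0.0713).

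Endocytosis, lysosomes and autophagy are the route by which cells take up and clear particles. Of 33 genes of this list, 12 were higher and none lower. The median difference was 0.29 after TiO2 and 0.39 in TiO2-control medium. The higher count was 5, 5 and 6 without Transwell replicate 1, 2 or 3. SQSTM1, the autophagy receptor p62, read 7.34, 7.11, 7.26 and 7.42 in chip cells and 6.22, 6.37 and 6.23 in Transwell cells (2.01-fold). GABARAPL1 and MAP1LC3B, which coat autophagosomes, rose 3.16-fold and 1.66-fold, and the protease gene CTSS 1.91-fold.

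Epithelial markers were detected in both groups. Of 14 general epithelial markers all lay above the array medians in chip and in Transwell cells, with EPCAM at 11.65 in chip cells and 11.55 in Transwell cells (adjusted p = 0.646), and 2 were higher and 2 lower (median 0.17). KRT18 (0.59) lost its call without chip replicate 1 or Transwell replicate 1 or 3 (adjusted p up to 0.121). Among 24 markers of other cell types 4 were higher and 1 lower (median 0.12), and all 4 were from the immune list of 9. The log2 values of the immune list summed to 41.2 to 44.0 in chip cells and 37.8 to 38.6 in Transwell cells. Only 5 of the 9 lay above the array medians in each system, so signals near background enter this sum. The 4 higher markers were LYZ, CD14 (1.92-fold), ITGAM and FCER1G. ITGAM lost its call without Transwell replicate 3 (adjusted p = 0.0625) and had a Transwell mean below the array medians. FCER1G (1.31, adjusted p = 0.0317) lost its call in 6 omissions (up to 0.108), and the part of such markers in the other results was not tested. The pan-leukocyte marker PTPRC was below the array medians in both systems, at 1.62 in chip cells and 1.58 in Transwell cells. Of 9 fibroblast markers none was higher and PDGFRB was lower (−0.79, adjusted p = 0.0487, lost in 5 omissions with up to 0.169), and of 4 endothelial and 2 neural markers none passed.

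The same systems were next compared in TiO2-control medium, to see how far the difference depended on TiO2. In a fit of the 15 arrays of both media, 1571 genes (7.01%) were higher and 2065 (9.22%) lower in chip cells after TiO2, and 1949 (8.7%) were higher and 2771 (12.4%) lower in control medium. Of these 1158 were higher and 1650 lower in both media, and 1 passed in opposite directions. Across all genes the differences in the 2 media correlated at r = 0.81 (Spearman's rho = 0.66), as a description over genes, which are not independent replicates, with no array in common. Of the genes at least 2-fold higher after TiO2, 421 of 423 were also above 0 in control medium, with a median difference of 1.39 after TiO2 and 1.32 in control medium. Of those at least 2-fold lower, 515 of 521 were below 0 in control medium, with medians of −1.30 after TiO2 and −1.32 in control medium.

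Values in both media are given here for genes described above. PLAUR differed by 3.82 after TiO2 and by 3.93 in control medium, CYP7A1 by −4.21 and −4.83, and CPS1 by −3.16 and −3.05. Metallothioneins had a median difference of 1.48 after TiO2 and 1.42 in control medium, immediate early genes 1.39 and 1.00, heat shock genes 0.78 and 0.94, brush border hydrolases −0.56 and −0.57, and phase I enzymes −0.50 and −0.83. CYP1A1 differed by 1.77 after TiO2 and by 1.88 in control medium. Of single metallothioneins, MT1H differed by 4.29 after TiO2 and 4.68 in control medium, MT1G by 4.24 and 5.14, and MT1X by 2.15 and 2.65. MT2A went the other way, with 1.88 and 1.74. The gaps between the media did not pass for these metallothioneins (adjusted p of 0.919 or higher in limma).

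The difference of these differences, tested directly in the same 15 arrays, passed for 0 genes in limma, with a smallest adjusted p of 0.712 and 1232 genes (5.5%) at an unadjusted p below 0.05. The 5 genes with the smallest p were TCF7L1-IT1, WIF1, MIR941-1, STC1 and LOC145474, each at 0.712. TCF7L1-IT1 after TiO2 was below the array medians in chip cells, and WIF1 in both systems. Among them STC1, a secreted regulator of calcium and phosphate, read 7.72, 7.92, 7.47 and 7.39 in exposed chip cells and 9.17, 8.76 and 8.83 in exposed Transwell cells, and its difference was −1.30 after TiO2 and −2.34 in control medium. TCF7L1-IT1 had a difference of −1.50 after TiO2 and 0.24 in control medium. The values were −1.44 and 0.60 for LOC145474, whose difference after TiO2 did not pass without Transwell replicate 1 or 3, and 0.03 and 1.21 for MIR941-1, which did not pass after TiO2. Other gaps that did not pass included CD14, at 0.94 after TiO2 and −0.07 in control medium (adjusted p = 0.769), TMIGD1, at 1.45 and 0.39 (0.78), and ALPG, at 2.31 and 1.24 (0.78). A p that misses the threshold does not show that the differences were equal. On data simulated for these array numbers and 22395 genes, this test recovered 42% of interactions of 1 and 95% of interactions of 2 log2 units. The comparison after TiO2 recovered 56% and 98%. The simulated noise was independent, with 1 SD per gene for all groups, and 200 genes were changed. Neither the shift of chip replicate 4 nor the wider chip spread was included, so recovery on the real arrays may differ. Leaving out both chip replicates 4 gave 2 passing genes with a more positive difference after TiO2 and 31 with a more negative one. More negative does not mean a narrower gap: TCF7L1-IT1 and LOC145474, with wider gaps after TiO2 in the values above, were among the 31. The more positive were FOSL1 (1.43 ± 0.23, adjusted p = 0.0337) and INTS5 (1.19 ± 0.19, adjusted p = 0.0303). The more negative with the lowest p in limma were LOC100190986 (−1.71) and MIR505 (−2.33), both at an adjusted p of 0.00273. The count of 0 with all arrays takes these 2 arrays as labelled. They were seen to stand apart in these same data, and no other pair of chip arrays was left out for comparison.

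**Figure D5:**
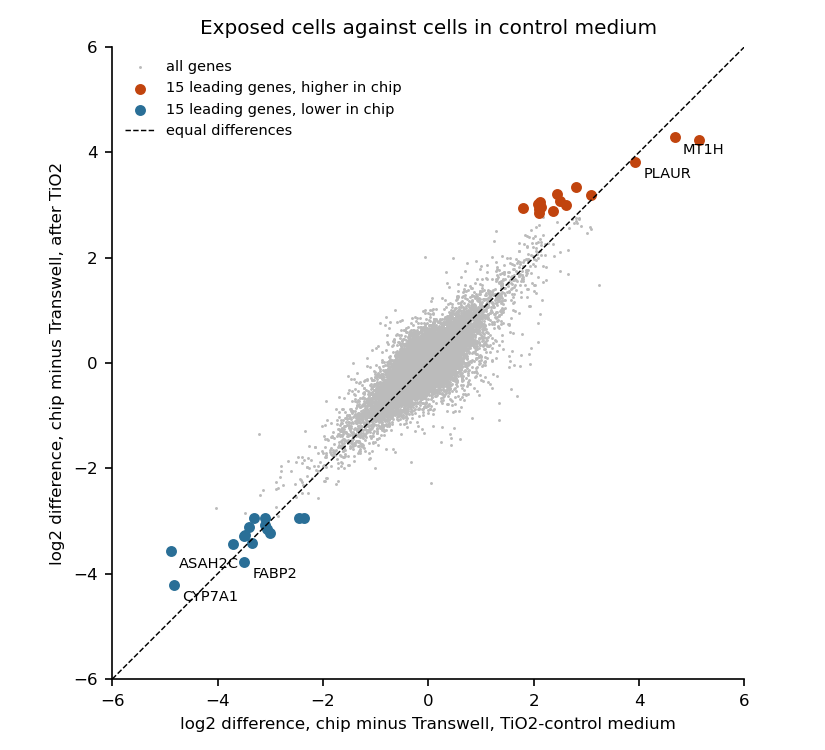
Log2 difference chip minus Transwell of each gene after TiO2 (vertical) against the same in TiO2-control medium (horizontal); grey points are the 22395 genes, coloured points the 15 leading higher and 15 leading lower genes, and the dashed line marks equal differences. The points lie along the line (r = 0.81), with PLAUR at 3.82 after TiO2 and 3.93 in control medium and CYP7A1 at −4.21 and −4.83.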

How the data were processed

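Total RNA (100 ng per sample) was labelled for an Affymetrix whole-transcript array, per the labels' protocols. The values the authors deposited are log2 expression, made by RMA according to what is given per the submitters' processing notes. RMA equalises the distributions of arrays and can hide a shift common to all genes. Its version is not given in the sources used here, nor is the array annotation. There were 53617 probe sets, 31 arrays and 0 gaps, and over the 7 arrays compared values ran from 0.366 to 13.313. Genes were named from the platform annotation for the 23871 probe sets that list 1 gene (1842 list several and 27904 none), with symbols updated through the RefSeq table. Where a gene had more than 1 probe set (632 genes), the brightest was kept. Arrays report no counts, so their number limits the precision.

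Limma 3.58.1 in R 4.3.3 compared the 7 arrays (5 residual and 3.93 prior degrees of freedom), and 15 arrays for the difference of differences (11 and 4.58), with Benjamini-Hochberg adjustment over 22395 genes. Tested on data simulated with independent noise, 1 SD per gene and 200 changed genes, the comparison after TiO2 made 6 false among 160 calls. This does not give its error rate on the real arrays. The 40 gene lists and the groups compared were chosen with earlier results of these data known, so lists are described by counts and medians and were not tested as sets. Some lists share members, such as ATF3 in the integrated stress response and immediate early lists, so their counts are not independent. The genes named were the 15 largest differences in each direction among genes that passed with no overlap of arrays, the 4 members of each list with the smallest p, and the 5 genes with the smallest p in the difference of differences. Other list members named were chosen after their values were seen. A group mean below the median of all probe sets, with or without a listed gene, on each of its arrays was treated as not shown above background. Background itself was not measured here. Alternatives were other priors, array weights, all 31 arrays, a filter on dim genes, averaged probe sets, other scalings, a replicate block and the omission of each array. Not analysed here were list members without a probe set of their own.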

Additional observations from a re-analysis of the deposited data

Results flagged for a closer look

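Among the 181 named genes, 10 (5.52%) had 1 chip array that lay far from the other 3, with a gap to its nearest neighbour, as a share of the group's range, above Dixon's critical value for 4 samples. Chance flags about 1 group in 20, and over all genes the share was 6.52% (1461 of 22395), with replicate 4 the distant array in 719 of these genes and replicates 1, 2 and 3 in 250, 235 and 257. Replicate 4 was the distant array for 6 of the 10 named genes. It was the highest for GABARAPL1 (gap 0.917 of the range), MT1X (0.902), TYMS (0.838) and GCLM (0.833), and the lowest for ZG16 (0.896) and SLC23A3 (0.893). Replicate 3 was the highest for FITM2 (0.909) and NDUFA1 (0.899), and replicate 2 for ASCL2 (0.898) and FABP2 (0.895). Without replicate 4 the differences were 1.40 for GABARAPL1, 2.03 for MT1X, −1.09 for TYMS, 0.63 for GCLM, −1.60 for ZG16 and −3.02 for SLC23A3.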

How the results depend on the processing

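The counts of higher and lower genes stayed within 1.5 times the reported 1305 and 1775 under each alternative other than leaving out 1 array. They were 1289 and 1754 with a robust prior, 1774 and 2293 with all 31 arrays in the fit, and 1513 and 1531 with arrays centred on their median. Leaving out 1 array gave 737 to 1583 higher and 867 to 2106 lower genes. With the replicate number as a block the counts were 1102 higher and 1465 lower, and 459 and 559 at 2-fold or more. Same-numbered chip and Transwell arrays deviated from their group means together at correlations of −0.006, −0.016 and −0.015. For differently numbered arrays the correlations were −0.015 to 0.029. Deviations from the mean of 3 arrays sum to 0, so these values do not decide whether the numbers mark shared batches. The labels do not say what the numbers mark. The difference of differences passed for 0 genes in each direction under the alternatives, with 2 exceptions. Without chip replicate 4 there were 8 genes with a more negative difference after TiO2. Without both chip replicates 4 there were 2 with a more positive and 31 with a more negative one. The cause was not tested. Of 3074 recomputed differences of named genes 2987 kept their side of the threshold, 74 lost their call and 13 gained one. The sign changed in 5, all of MIR941-1, which did not pass in any of them (0.03 as reported, −0.04 without chip replicate 4 and with the replicate block). The 18 genes that lost a call in any setting all did so without some Transwell array. Precision is limited by 3 Transwell arrays and, for dim genes, by signals near background.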
